A study of Mus musculus with 8 samples.

Results

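The ERK feedback inhibitors examined here are 10 genes of 3 families: the MAP kinase phosphatases Dusp1, Dusp4, Dusp5, Dusp6 and Dusp10, the Sprouty genes Spry1, Spry2 and Spry4, and the Spred genes Spred1 and Spred2. They were chosen by name, as inducible inhibitors of MAP kinase signalling, out of 25793 genes and unnamed probes that could be tested. The choice was made with earlier results of these data known, so shares set beside those of all genes are descriptive. Their transcripts were measured on 8 one-colour Agilent arrays of mouse 3T3-L1 cells, a preadipocyte line that had been held for 1 week in adipogenic medium and is labelled as adipocytes. The cells received medium conditioned by human HL-60 cells, a promyelocytic leukaemia line turned into macrophage-like cells by 5 days with 30 nM phorbol 12-myristate 13-acetate (PMA). The study asked how that medium differs when USP2, a deubiquitinating enzyme, is knocked down in the HL-60 cells.

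The 4 groups held 2 arrays each, labelled as biological replicates: supernatant of USP2-knockdown HL-60 cells (KD) for 6 h, supernatant of mock-transfected HL-60 cells (control) for 6 h, KD supernatant for 3 h and control supernatant for 3 h. Both supernatants were collected in medium with PMA and were diluted 2-fold, so PMA-conditioned medium is common to all 4 groups, and no array of cells without supernatant was analysed here. A serum content of 10% is likewise recorded for all 4 groups. The labels do not say whether the replicates of a group came from separate batches of supernatant, and the spread behind each p-value, that between samples as deposited, may be technical. USP2 was knocked down in the human donor cells, whose RNA was not on the arrays, so the level of USP2 in them was not checked. All 8 arrays lay on 1 slide, with KD arrays in other slide columns than control arrays and 6 h arrays in another row than 3 h arrays, so supernatant and column, and time and row, cannot be told apart.

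A level below is log2 of the processed spot signal minus the 75th percentile of that array, so 0 is the level of a rather bright probe and each unit is a doubling. Levels of different genes come from different probes and were not set against each other. A gene is said to have risen or fallen where limma's moderated test gave a Benjamini-Hochberg adjusted p under 0.05 over all genes and probes tested. On each array 50.7% to 55.9% of non-control probes exceeded background clearly, and replicate arrays correlated at 0.988 to 0.998 across probes. The lowest value, 0.988, was that of control 6 h, the reference of every supernatant difference at 6 h. Bright patches, areas where neighbouring spots read high together, held 5.5% and 2.47% of the spots on its arrays and at most 0.894% on the others. The small number of arrays limits the precision of every value. Of the 9 adipocyte markers 3 (Pparg, Fabp4 and Lpl) were above background on all 8 arrays and 5 (Adipoq, Cidec, Cd36, Lep and Cfd) on none, while 6 of 7 preadipocyte and fibroblast markers were above background on all 8. Several transcripts that define mature fat cells were thus not above background in the cells labelled as adipocytes. In RNA of a whole culture, fewer cells of a type and less RNA per cell cannot be told apart.

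ERK signalling runs from a growth factor receptor through Ras, Raf and MEK to the ERK kinases, which enter the nucleus and switch on early response genes. Among those genes are inhibitors of the same pathway. The Dusp proteins remove phosphate from MAP kinases: DUSP6 acts on ERK in the cytoplasm, DUSP5 on ERK in the nucleus, DUSP4 and DUSP1 are inducible nuclear enzymes, and DUSP10 acts mainly on p38 and JNK. Sprouty and Spred proteins act further upstream, between the receptor and Raf, and SPRED1 recruits the Ras inhibitor neurofibromin to the membrane. In fat cell precursors, ERK activity is known to bear on differentiation.

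The 250 bases before the annotated start were available from RefSeq (GRCm38.p6) for 8 of the 10 genes, not including Dusp4 and Spry4. They were searched on both strands for 5 short sequences bound by factors of this pathway, and 4 are printed to show the matched promoters and those of an ERK phosphatase that was higher at both times and of the gene that ran opposite in time. Capitals mark the matches: a cAMP response element (TGACGTCA) 143 to 136 bases before the start of Dusp1, and 2 adjacent CArG boxes, the serum response factor motif, 82 to 73 and 72 to 63 bases before the start of Dusp5. The sequences run 5′ to 3′ in the direction of the gene, from chr17:26508473-26508722 (minus strand) for Dusp1, chr19:53528895-53529144 (plus strand) for Dusp5, chr10:99262981-99263230 (plus strand) for Dusp6 and chr3:37639697-37639946 (plus strand) for Spry1.
Dusp1: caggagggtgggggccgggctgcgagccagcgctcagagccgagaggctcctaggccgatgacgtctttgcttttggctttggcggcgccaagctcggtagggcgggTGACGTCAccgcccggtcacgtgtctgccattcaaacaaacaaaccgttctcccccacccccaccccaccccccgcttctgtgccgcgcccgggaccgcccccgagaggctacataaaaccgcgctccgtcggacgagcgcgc
Dusp5: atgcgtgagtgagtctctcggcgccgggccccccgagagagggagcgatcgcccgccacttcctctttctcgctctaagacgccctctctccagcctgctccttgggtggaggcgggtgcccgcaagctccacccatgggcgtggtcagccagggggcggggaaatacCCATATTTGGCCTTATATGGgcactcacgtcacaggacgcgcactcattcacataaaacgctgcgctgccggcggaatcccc
Dusp6: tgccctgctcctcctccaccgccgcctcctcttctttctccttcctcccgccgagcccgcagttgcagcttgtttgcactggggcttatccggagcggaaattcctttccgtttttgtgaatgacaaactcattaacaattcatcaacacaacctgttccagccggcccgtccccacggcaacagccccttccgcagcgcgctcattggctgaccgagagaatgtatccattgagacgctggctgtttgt
Spry1: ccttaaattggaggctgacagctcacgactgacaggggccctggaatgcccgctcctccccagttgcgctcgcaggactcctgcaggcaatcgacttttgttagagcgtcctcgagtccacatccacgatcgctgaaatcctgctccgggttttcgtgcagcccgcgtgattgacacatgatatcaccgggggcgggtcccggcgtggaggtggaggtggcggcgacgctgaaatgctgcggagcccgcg
Of all 32851 promoters of this length 1.55% held the cAMP response element and 1.47% a CArG box. The other motifs searched, the AP-1 site TGANTCA, the ETS site CCGGAAG and the EGR site GCGNGGGCG, were in 6.75%, 6.91% and 4.70% of all promoters and in 0 of the 8. A match is a run of letters and not a measured binding site.

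With KD supernatant, the ERK phosphatases Dusp4 and Dusp6 were higher than with control supernatant at both times, and the Spred gene Spred2 was higher at 6 h. Dusp5 also passed at 6 h, but only 1 of the 4 arrays of 6 h was above background for it, so the data set no lower bound on that difference. With Dusp5 counted, 4 of the 10 inhibitors passed as higher at 6 h and 0 as lower, where 2.41% of all genes and probes passed (1.74% higher and 0.663% lower). At 3 h, 2 of the 10 rose and 0 fell, where 0.264% of all passed (0.240% higher and 0.0233% lower). Averaged over both times 4 passed as higher, Dusp5 among them, and 0 as lower, where 3.24% of all passed (2.31% higher and 0.923% lower). The averaged call of Dusp5 takes in its 6 h values and carries their limit. At an unadjusted p under 0.05, limma placed 6 inhibitors higher and 1, Spry1, lower at 6 h, where the shares of all genes and probes were 12.7% and 7.2%. At 3 h it placed 7 higher and Spry1 lower, where the shares of all were 5.15% and 5.48%. The median difference of the 10 was 0.62 on the log2 scale at 6 h and 0.42 at 3 h, beside 0.01 and -0.01 over all genes and probes. Every KD array lay above every control array for 7 inhibitors at 6 h, as for 28.2% of all genes and probes, and for 8 inhibitors at 3 h, as for 21.2% of all. The reverse order held for 1 inhibitor at 6 h, Spry1 (20.1% of all), and for 2 at 3 h, Dusp1 and Spry1 (26.1% of all).

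**Figure D1:**
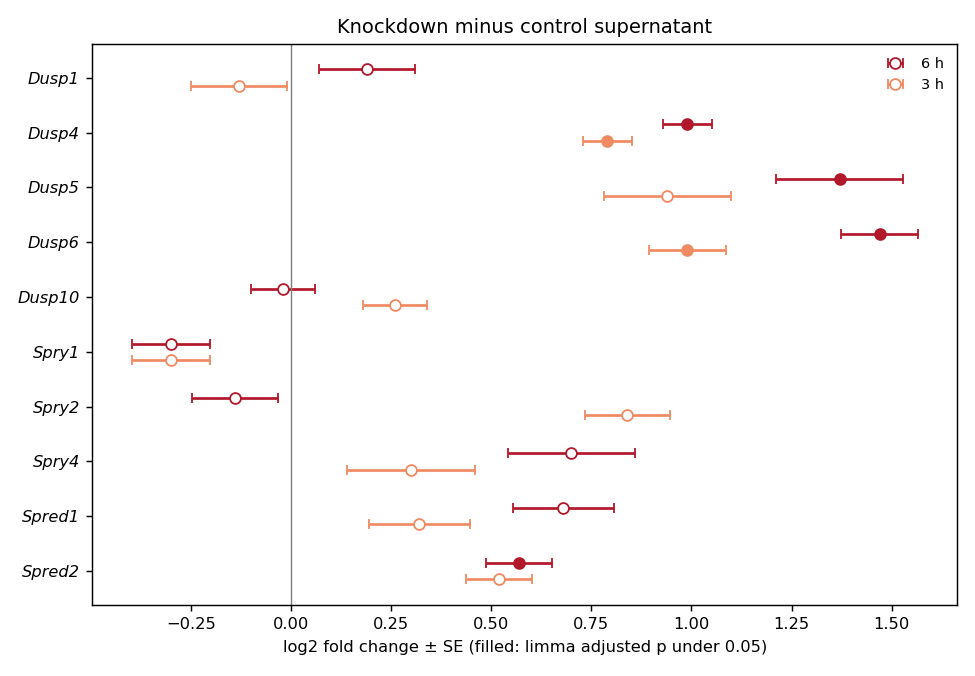
Log2 fold change of the 10 inhibitors, KD minus control supernatant, with its standard error on the horizontal axis, at 6 h (upper point of each pair) and at 3 h (lower point). Filled points passed limma's adjusted p threshold of 0.05: Dusp4, Dusp5, Dusp6 and Spred2 at 6 h, and Dusp4 and Dusp6 at 3 h. The Dusp5 point at 6 h rests on control arrays that were not above background.

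Dusp6, the cytoplasmic ERK phosphatase, measured 2.62 and 2.83 on the KD 6 h arrays, against 1.21 and 1.31 on the control 6 h arrays. At 3 h it measured 3.78 and 3.68 with KD and 2.78 and 2.69 with control supernatant. The groups did not overlap at either time, and the KD cells at 6 h overlapped the control cells at 3 h. With KD supernatant Dusp6 was 2.76-fold higher at 6 h (log2 1.47 ± 0.0958 SE, limma adjusted p = 0.00663) and 1.99-fold higher at 3 h (0.99 ± 0.0958, adjusted p = 0.0368). Averaged over both times the log2 difference was 1.23 ± 0.0678 (adjusted p = 0.00263), which placed it at rank 27 of all genes and probes by p.

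Dusp4, an inducible nuclear phosphatase, measured 0.77 and 0.76 on the KD 6 h arrays, against -0.19 and -0.25 on the control 6 h arrays. The 3 h arrays gave 1.78 and 1.85 with KD and 1.04 and 1.01 with control supernatant. Replicates of Dusp4 lay close together in each of the 4 groups, with standard deviations of 0.01 to 0.05. With KD supernatant it was 1.98-fold higher at 6 h (log2 0.99 ± 0.0611 SE, limma adjusted p = 0.00617) and 1.72-fold higher at 3 h (0.79 ± 0.0611, adjusted p = 0.0223). The average was 0.89 ± 0.0432 (adjusted p = 0.00177), at rank 20. The 3 h calls of Dusp4 and of Dusp6 were both lost when any 1 of the 4 arrays of 3 h or either KD 6 h array was left out, with adjusted p up to 0.26 for Dusp4 and 0.282 for Dusp6, and that of Dusp6 also without either control 6 h array. Their 6 h calls were kept without each of the 8 arrays in turn, and were lost without the filter on dim probes (0.0615 for Dusp4 and 0.0615 for Dusp6) and in a fit of the 4 arrays of 6 h alone (0.17 for both), and that of Dusp4 also without scaling (0.053).

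Dusp5, the nuclear ERK phosphatase, was dim. It measured -4.11 and -4.38 on the KD 6 h arrays, of which 1 of 2 was well above background, against -5.59 and -5.63 on the control 6 h arrays, of which 0 of 2 were. At 3 h, where all 4 arrays were above background, it measured -1.87 and -1.50 with KD and -2.51 and -2.74 with control supernatant. The test gave a log2 difference of 1.37 ± 0.159 SE at 6 h (limma adjusted p = 0.0196). Neither the control arrays nor 1 of the 2 KD arrays were above background there, so the 6 h data set no lower bound on the difference. The measured means were -4.25 for KD and -5.61 for control supernatant. At 3 h the log2 difference was 0.94 ± 0.159 (limma adjusted p = 0.111), and averaged over both times it was 1.15 ± 0.113 (limma adjusted p = 0.00891). That average takes in the 6 h values, so its size and its call carry the same limit. A different background correction, normexp, gave 0.14 at 6 h (adjusted p = 0.517), and the 6 h call was also lost without either control 3 h array (0.0534) or without KD 6 h replicate 1 (0.0875).

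Dusp1, a nuclear phosphatase of ERK, p38 and JNK, measured 0.98 and 1.32 on the KD 6 h arrays and 0.98 and 0.95 on the control 6 h arrays. Dusp1 at 3 h measured 1.92 and 1.82 with KD and 1.95 and 2.04 with control supernatant. The log2 difference averaged over both times was 0.0304 ± 0.0851 SE (limma adjusted p = 0.87), with a 95% interval of -0.18 to 0.24. Dusp10, which acts mainly on p38 and JNK, measured 0.0216 and 0.21 on the KD 6 h arrays and 0.15 and 0.12 on the control 6 h arrays. Its 3 h levels were 0.56 and 0.62 with KD and 0.32 and 0.34 with control supernatant. The groups of Dusp10 overlapped at 6 h and not at 3 h, and its averaged difference of 0.12 ± 0.0558 did not pass (adjusted p = 0.307, 95% interval -0.02 to 0.26).

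None of the 3 Sprouty genes passed the test at either time with the settings used throughout. Spry1, a membrane-associated inhibitor of Ras activation, measured 1.89 and 1.69 on the KD 6 h arrays and 2.11 and 2.07 on the control 6 h arrays. On the 3 h arrays Spry1 measured 0.58 and 0.65 with KD and 1.00 and 0.82 with control supernatant. It was the only one of the 10 with lower values on KD arrays, without overlap, at both times, and its averaged difference of -0.30 ± 0.0689 SE did not pass (limma adjusted p = 0.0887).

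Spry2, a Sprouty protein known to act on receptor tyrosine kinase signals, measured -4.02 and -3.80 on the KD 6 h arrays and -3.71 and -3.82 on the control 6 h arrays. Its levels at 3 h were -2.49 and -2.44 with KD and -3.40 and -3.21 with control supernatant. The groups of Spry2 overlapped at 6 h, with a log2 difference of -0.14 ± 0.107 SE (limma adjusted p = 0.497), and lay apart at 3 h, with 0.84 ± 0.107 (adjusted p = 0.0671). The 3 h difference of Spry2 passed with array weights (0.0264) and among probes above background on all 8 arrays (0.03), and was 0.30 with normexp background correction (0.381). Spry4, which inhibits the same pathway, measured -3.24 and -3.35 on the KD 6 h arrays and -4.24 and -3.75 on the control 6 h arrays, where replicate 1 was not well above background. At 3 h Spry4 measured -2.47 and -2.46 with KD and -2.79 and -2.73 with control supernatant. Its log2 difference was 0.70 ± 0.159 at 6 h (adjusted p = 0.0969) and 0.30 ± 0.159 at 3 h (adjusted p = 0.597).

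Spred2, a membrane inhibitor of Raf activation, measured 0.34 and 0.27 on the KD 6 h arrays and -0.21 and -0.31 on the control 6 h arrays. At 3 h it measured 1.54 and 1.55 with KD and 1.11 and 0.94 with control supernatant. With KD supernatant it was 1.48-fold higher at 6 h (log2 0.57 ± 0.0818 SE, limma adjusted p = 0.0322), and 0.52 ± 0.0818 separated the groups at 3 h (adjusted p = 0.0941). The average was 0.54 ± 0.0579 (limma adjusted p = 0.0116). On KD 3 h replicate 2 the probes around the Spred2 spot were low, at -0.35 from the usual. The part of this in the 3 h and averaged differences was not tested. Its spot on control 6 h replicate 2 lay in a bright patch of that array, where the surrounding probes were 0.32 above the usual, and without patch spots the 6 h difference was 0.52 with adjusted p = 0.0871. The 6 h call was also lost without either array of control 3 h (0.0599), of KD 3 h (0.0962) or of KD 6 h (0.143 without replicate 1 and 0.106 without replicate 2).

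Spred1, the Spred protein that binds neurofibromin, measured 0.45 and 0.74 on the KD 6 h arrays and -0.17 and 0.005 on the control 6 h arrays. At 3 h it measured 1.24 and 1.43 with KD and 1.02 and 1.01 with control supernatant. The groups did not overlap at either time, and the differences, 0.68 ± 0.126 SE at 6 h (limma adjusted p = 0.0631) and 0.32 ± 0.126 at 3 h (adjusted p = 0.461), did not pass. Averaged over both times the difference was 0.50 ± 0.0892 (adjusted p = 0.0503).

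**Figure D2:**
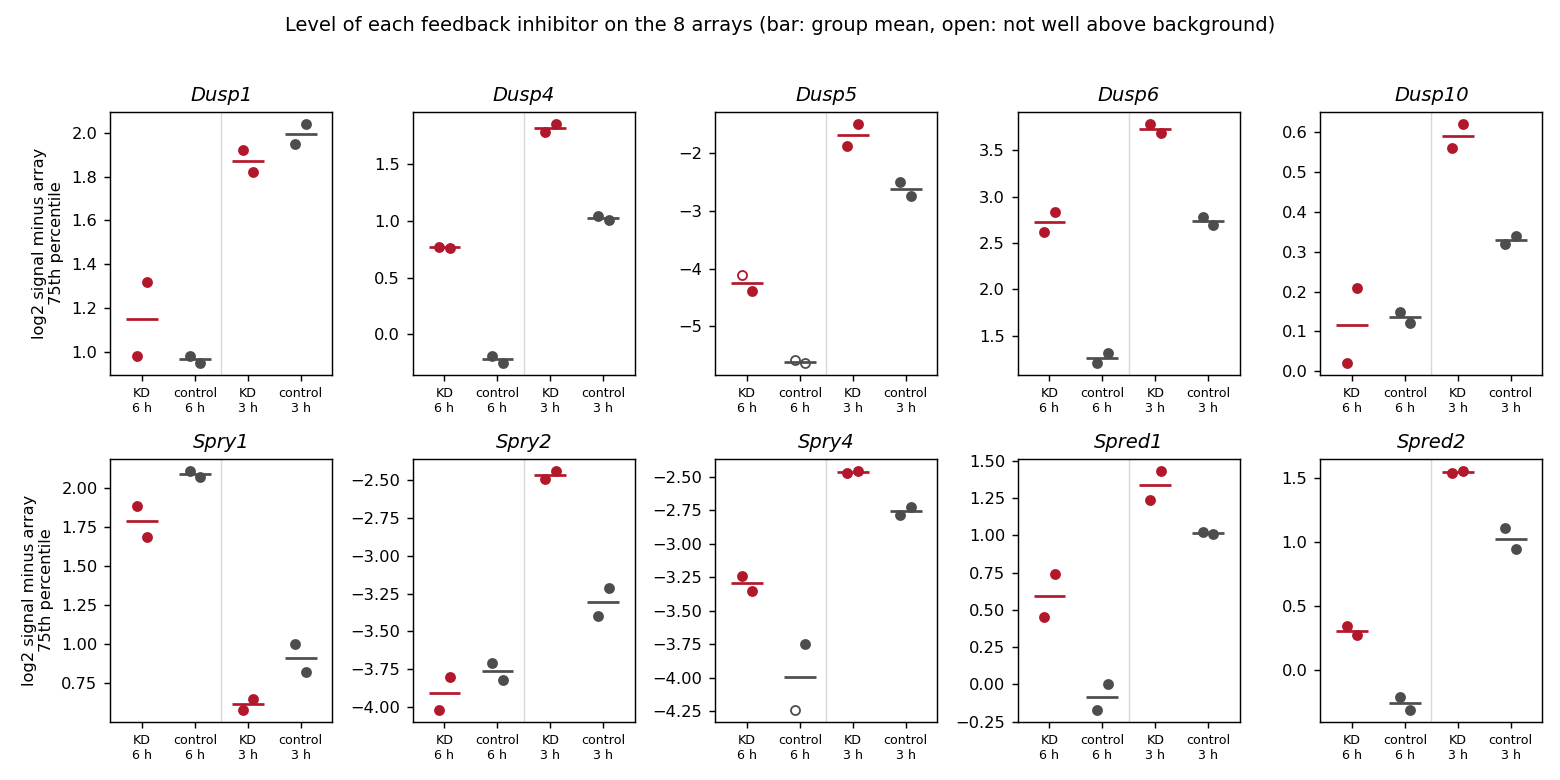
Level of each inhibitor (vertical axis, log2 signal minus the 75th percentile of the array) on all 8 arrays, in panels with separate scales, for KD and control supernatant at 6 h and at 3 h. Points are arrays, bars are means of the 2 arrays of a group, and open points (3 of Dusp5 and 1 of Spry4) were not well above background.

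Whether the supernatant difference itself changed between 3 h and 6 h was tested directly, and it passed for 0 of the 10 inhibitors and for 0% of all 25793 genes and probes by limma. At an unadjusted p under 0.05 it differed for 3 inhibitors, as for 9.25% of all genes and probes. The supernatant difference of Spry2 was smaller at 6 h than at 3 h by 0.98 on the log2 scale, written as -0.98 ± 0.151 SE (95% interval -1.36 to -0.61, adjusted p = 0.263). That of Dusp10 differed by -0.28 ± 0.112 (adjusted p = 0.537) and that of Dusp6 by 0.47 ± 0.136 (adjusted p = 0.457). For Dusp4 and Spred2 the 95% intervals were -0.01 to 0.42 and -0.24 to 0.33.

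Between 3 h and 6 h, whichever supernatant was given, transcripts of most inhibitors fell, and Spry1 rose. With KD supernatant 9 of the 10 fell and 1 rose, where 40.4% of all genes and probes passed (22.9% lower and 17.5% higher). With control supernatant 8 fell and 1 rose, where 40.6% of all passed (24.7% lower and 15.9% higher). The median change of the 10 was -0.92 with KD and -1.16 with control supernatant, beside -0.11 and -0.09 over all genes and probes. Every 6 h array lay below every 3 h array for 9 inhibitors with KD supernatant (48.5% of all) and for 9 with control supernatant (42.2% of all). The reverse order held for Spry1 alone with both, as for 29.4% of all with KD and 25.8% with control supernatant. Over all genes, the split of higher and lower calls moved with the scaling: 4522 and 5895 with KD supernatant became 3675 and 6722 when arrays were scaled by their median and 3683 and 1815 without scaling. With control supernatant 4095 and 6367 became 2807 and 9189 by median scaling and 2864 and 2870 without scaling. Without scaling, Dusp1, Dusp10, Spry4 and Spred1 did not pass with KD supernatant (limma adjusted p of 0.101 to 0.284).

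**Figure D3:**
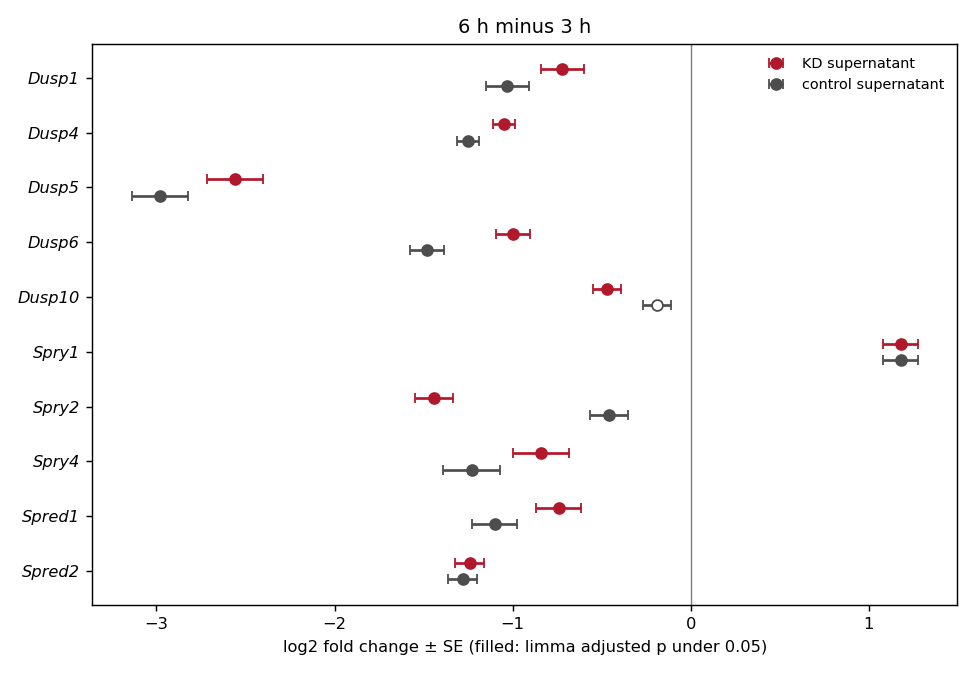
Log2 fold change of the 10 inhibitors, 6 h minus 3 h, with its standard error on the horizontal axis, with KD supernatant (upper point of each pair) and with control supernatant (lower point). All points were filled, meaning an adjusted p under 0.05, except Dusp10 with control supernatant; Spry1 lies right of 0 and the other genes left of it.

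The nuclear ERK phosphatase Dusp5 fell with KD supernatant (log2 -2.56 ± 0.159 SE, limma adjusted p = 0.00023), where 1 of the 2 arrays of 6 h was above background, so that the size of the drop is uncertain. With control supernatant its 6 h arrays were not above background (limma adjusted p = 0.000153, measured means -5.61 at 6 h and -2.63 at 3 h). With the 6 h level set at the dimmest probe marked above background on each array, the drop was 3.11-fold. Unmarked probes can be brighter than that, so this is not a strict lower limit. Dusp6 fell 2-fold with KD (SE 0.0958 on the log2 scale, adjusted p = 0.000789) and by 1.48 ± 0.0958 with control supernatant (adjusted p = 0.000243). Dusp4 fell by 1.05 ± 0.0611 with KD and by 1.25 ± 0.0611 with control supernatant. Dusp1, the phosphatase of all 3 MAP kinase branches, was without a supernatant difference past the threshold and still fell with time, by 0.72 ± 0.12 with KD (adjusted p = 0.00567) and by 1.03 ± 0.12 with control supernatant (adjusted p = 0.00144). Dusp10 fell by 0.47 ± 0.079 with KD (adjusted p = 0.00562) and measured -0.19 ± 0.079 with control supernatant, which did not pass (adjusted p = 0.105).

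Among the upstream inhibitors, Spry1 was 2.26-fold higher at 6 h than at 3 h with KD supernatant (log2 1.18 ± 0.0974 SE, limma adjusted p = 0.000516) and 2.27-fold higher with control supernatant (1.18 ± 0.0974, adjusted p = 0.000461). Spry2, its relative, fell by 1.44 ± 0.107 with KD (adjusted p = 0.000372) and by 0.46 ± 0.107 with control supernatant (adjusted p = 0.0184). Spry4 fell by 0.84 ± 0.159 with KD and by 1.23 ± 0.159 with control supernatant. The Spred genes fell too: Spred1 by 0.74 ± 0.126 with KD and 1.10 ± 0.126 with control supernatant, and Spred2 by 1.24 ± 0.0818 with KD and 1.28 ± 0.0818 with control supernatant. The supernatant and time comparisons share arrays. RNA spikes added to the samples, 10 in number, differed between 6 h and 3 h by a median of -0.09 with KD and -0.36 with control supernatant, and between KD and control supernatant by 0.15 at 6 h and -0.10 at 3 h, and their part in these results was not tested.

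Ordered by mean level, 8 inhibitors (Dusp4, Dusp5, Dusp6, Dusp10, Spry2, Spry4, Spred1 and Spred2) were highest with KD supernatant at 3 h and next with control supernatant at 3 h. Dusp6 had means of 2.72 with KD at 6 h, 1.26 with control at 6 h, 3.73 with KD at 3 h and 2.73 with control at 3 h, so KD at 6 h and control at 3 h could not be ordered. For Dusp5 both 6 h groups lay below both 3 h groups and could not be ordered between themselves, being at or near background, and at 3 h its means were -1.69 with KD and -2.63 with control supernatant. For Spry2 and Dusp10 both 6 h groups overlapped. Dusp1 was highest with control supernatant at 3 h, and Spry1 with control supernatant at 6 h, so that the order of Spry1 was opposite in both time and supernatant to that of Dusp4.

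Other genes of the pathway were read from lists chosen by function, with earlier results of these data known. On average over both times 2.31% of all genes and probes passed as higher and 0.923% as lower. Of the 7 other MAP kinase phosphatases, Sprouty and Spred genes tested, 1 rose with KD supernatant averaged over both times and 0 fell. The median of the 7, 0.31, is the value of Spred3, which was above background on no arrays but the 2 of KD at 6 h, so nothing is read from it. The gene that rose was Dusp9, an ERK phosphatase. It measured -1.34 and -1.10 on the KD 6 h arrays and -1.98 and -1.83 on the control 6 h arrays. Its averaged difference was 0.50 ± 0.0727 SE (limma adjusted p = 0.0287). Dusp2, an inducible nuclear phosphatase, averaged 1.29 ± 0.439 and did not pass (adjusted p = 0.191), and its KD 6 h replicates measured -2.74 and -0.65. The core list held 21 genes from Ras adaptors to ERK, with Map2k5 and Mapk7 of a separate MAP kinase branch counted in. Of the 21, 0 passed at 6 h, at 3 h or averaged, and the averaged median was 0.01. On average 4 had an unadjusted p under 0.05 by limma, a share near the 19.9% of all genes and probes.

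Of 13 other negative regulators of the pathway, 4 rose and 0 fell on average (2.31% and 0.923% of all genes and probes). The list's median was 0.11. Errfi1, an inhibitor of the EGF receptor, averaged 0.69 ± 0.0405 (limma adjusted p = 0.00297), and was higher at 6 h (0.79) and at 3 h (0.60). The Ras GTPase activators Rasa1 and Rasa2 averaged 0.53 and 0.35, and the phosphatase Ptpn12 0.56. Nf1, which encodes neurofibromin, the partner of SPRED1, averaged -0.11 and did not pass (adjusted p = 0.581).

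Of 12 transcripts known to respond to ERK, 9 rose and 0 fell on average, with a median of 0.60. Over all genes and probes 2.31% passed as higher and 0.923% as lower. This list, too, was chosen with earlier results of these data known. The early response factor Fos averaged 0.92 ± 0.0552 SE (limma adjusted p = 0.00325), and measured -1.96 and -1.88 on the KD 6 h arrays against -2.90 and -2.75 on the control 6 h arrays. Fosl1 averaged 0.79, Myc 0.71 and Egr1 0.70. The ETS factor Etv5 was higher at 6 h by 1.14 ± 0.0756 (adjusted p = 0.00663) and differed by 0.0536 ± 0.0756 at 3 h (adjusted p = 0.904). The test of that change in difference, 1.08 ± 0.107, did not pass over all genes (adjusted p = 0.154). Cyclin D1 (Ccnd1) averaged 0.44 and did not pass (adjusted p = 0.0915). Of 10 p38 and JNK kinases tested, 1 rose on average, Map2k3, a p38 activator, by 0.46 ± 0.0454 (adjusted p = 0.00908), and the list's median was 0.04. At 6 h 2 of the 10 passed as higher, where 1.74% of all genes and probes did. They were Map2k3 (0.47, limma adjusted p = 0.0286) and the p38 kinase Mapk11 (0.43, adjusted p = 0.0283).

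**Figure D4:**
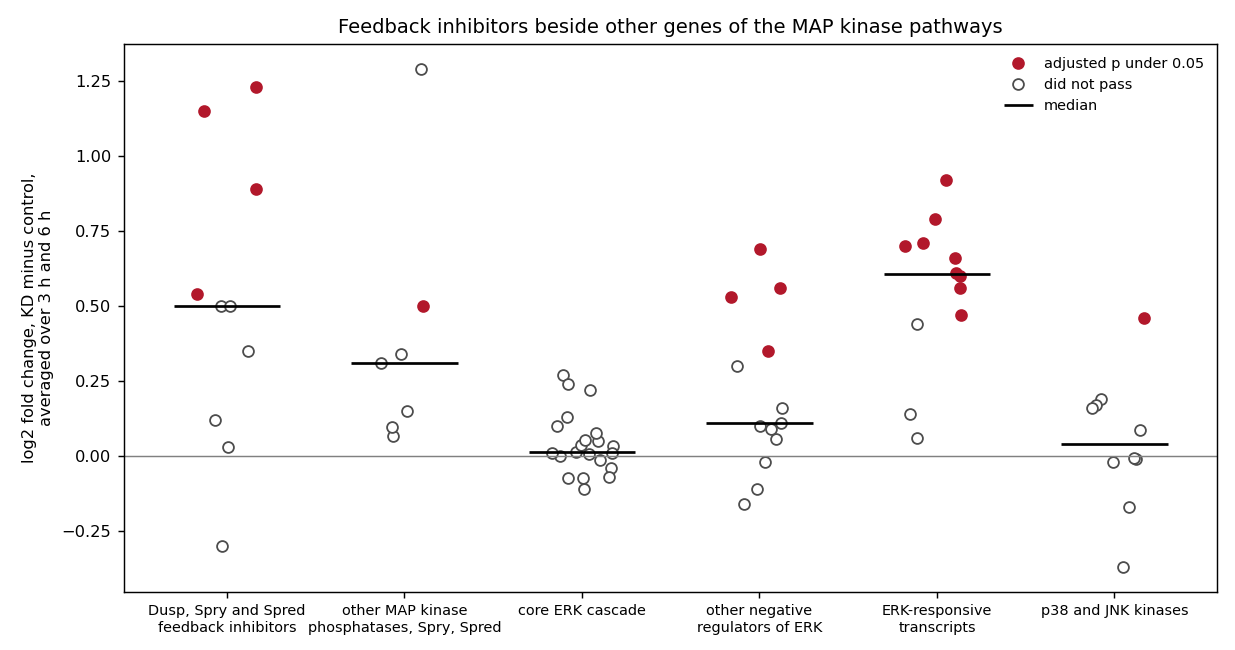
Log2 fold change of single genes, KD minus control supernatant averaged over both times (vertical axis), for the 10 inhibitors and 5 other lists of MAP kinase genes. Filled points passed limma's adjusted p threshold of 0.05, lines are list medians (0.50 for the inhibitors, 0.31, 0.01, 0.11, 0.60 and 0.04 for the lists from left to right), and all 21 core genes are open.

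Macrophage and leukocyte markers were read because the supernatants came from macrophage-like cells. Of 6 such markers with a probe, Ptprc and Adgre1 were above background on 0 arrays and the other 4 on all 8. Their summed signal, taken from the brightest probe of each gene, was mostly that of 1 of the 3 probes of Itgam, an integrin subunit. The sum, in units of the array's 75th percentile, was 44.1 to 47.2 with KD and 42.9 to 49 with control supernatant at 6 h, and 62.2 to 63.9 with KD and 49.7 to 51.5 with control supernatant at 3 h. The members of the list went different ways: at 3 h Itgam and Cd14 lay higher on both KD arrays (log2 differences of 0.34 and 0.55), and Lyz2 and Csf1r lay lower on both (-0.38 and -0.31). At 6 h Cd14 differed by 0.42 and Lyz2 by -0.54. By limma 0 of the 4 passed at either time, with 2 at an unadjusted p under 0.05 at 6 h, in opposite directions, and 2 at 3 h, where 19.9% and 10.6% of all genes and probes did. Cd14 rose on average by 0.48 (adjusted p = 0.0162). The part of these markers in the results above was not tested.

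The genes whose pattern over the 8 arrays was most like that of an inhibitor were found among 12557 named genes above background on all 8 arrays, by the root mean square difference on the log2 scale after centring each gene. Nearest to Dusp6 were Nr4a1 (0.139), Ptgs2 (0.156) and Lce1f (0.165), where Dusp6 itself varied by 0.884 around its mean. Nearest to Dusp4 were Smad7 (0.102), Tgif1 (0.111) and Thbs1 (0.115). Nearest to Dusp5 were Ereg (0.165), Coq10b (0.387) and Hbegf (0.462). For Dusp5 these distances rest partly on 3 arrays on which it was not above background. Ereg encodes a ligand of the EGF receptor.

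Spred2 was nearest to Sphk1 (0.0507), Zswim6 (0.0511) and Dot1l (0.0664), and Spred1 to Socs5 (0.0789), Tuba1c (0.0956) and Utp23 (0.106). Spry1 was nearest to Gm11696 (0.0536), Nr1h3 (0.0694) and Brca2 (0.0786), and Spry4 to Sgms2 (0.0936), Tfrc (0.116) and Utp23 (0.121). Spry2 was nearest to Tgtp1 (0.163), Tgtp2 (0.19) and Iigp1 (0.195), of which the first pair are near-identical copies that a probe may not tell apart. Dusp1 was nearest to Cdc42se1 (0.0693), Mtrr (0.0717) and Trim27 (0.0738), and Dusp10 to Mcidas (0.0375), Slc16a8 (0.042) and Cwf19l1 (0.0518). Around their own means Dusp10 varied by 0.197, Spry2 by 0.568 and Dusp5 by 1.51, so distances of different inhibitors cannot be ranked against each other.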

How the data were processed

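Agilent Feature Extraction 10.7.3.1, named in the submitters' processing notes, made the scanner files. Their processed signal is an intensity, background-subtracted per the file headers and deposited for each spot. The deposited value table holds log2 values that differ from the scanner log2 by a shift per array and are not centred by gene; its scale therefore runs as the signal does, how the shift was chosen is not given in the sources used here, and its column medians were -4.12 and -4.23 (KD 6 h), -3.96 and -4.06 (control 6 h), -4.23 and -4.24 (KD 3 h) and -4.15 and -4.18 (control 3 h).

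Control spots and outlier spots were left out, log2 signals were centred on each array's 75th percentile over non-control probes, and a probe was kept if the scanner software marked it well above background in 1 whole group or more (30106 of 55681). Of 55681 probes 27235 were named through their transcript and 20 through a symbol; the probe with the highest mean stood for a gene, and each of the 10 inhibitors had 1 probe. Group means of the 4 groups were fitted with limma 3.58.1 in R 4.3.3 (lmFit, eBayes; 4 residual and 1.74 prior degrees of freedom), with Benjamini-Hochberg adjustment over 25793 genes and unnamed probes. The steps were tested on simulated data.

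The genes and lists were chosen with earlier results of these data known. All 10 inhibitors are described; of each other list, up to 6 genes called in KD against control by smallest averaged p, up to 2 not called, and 3 nearest genes by pattern were named. Deviations of same-numbered arrays correlated at -0.05 to 0.09, so no strong effect shared by replicate number was seen. Whether the samples were paired cannot be told from these values. Alternatives covered scaling, background, filters, probe choice, patches, weights, the intensity trend, the value table, the arrays in the fit, the replicate block and each array left out.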

Additional observations from a re-analysis of the deposited data

How the results depend on the processing

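The number of inhibitors that passed moved with some settings. For KD against control at 6 h (4) it was 2 without scaling, 2 with array weights, 2 with the replicate number as a block, 0 without the filter on dim probes, 0 with only the 4 arrays of 6 h, and 2 to 6 with 1 array left out. For 3 h (2) it was 1 with median scaling, 4 with array weights, 0 without scaling, without the filter, with the replicate block and with only the 4 arrays of 3 h, and 0 to 1 with 1 array left out. For the average (4) it was 2 without the filter, and for time with KD supernatant (10) it was 6 without scaling. The other settings left these counts, and those for time with control supernatant and for the difference between times, within 1.5 times; the fit of 4 arrays gives no average and no difference. With the replicate block the 6 h adjusted p by limma was 0.0219 for Dusp4, 0.025 for Dusp6, 0.0522 for Dusp5 and 0.0505 for Spred2. Averaged over both times Dusp4, Dusp5 and Dusp6 kept their calls without each array in turn, and Spred2 lost its call without either KD 3 h array or KD 6 h replicate 1. The averaged call of Dusp5 rests in part on 6 h arrays on which it was not above background. Median scaling moved the median of all genes by 0.17 at 6 h and 0.12 on average, and by -0.16 for time with control supernatant. No scaling moved it by 0.17 for time with KD supernatant. Over all genes at 6 h, 450 higher and 171 lower calls became 1237 and 114 by median scaling and 47 and 40 without scaling; the averaged 597 and 238 became 1352 and 126 by median scaling.

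Signs turned only in values that did not pass. Dusp10 at 6 h became 0.15 by median scaling, 0.0146 without scaling and -0.11 to 0.0737 without 1 array (0.0737 without KD 6 h replicate 1); Spry2 at 6 h became 0.0286 by median scaling and 0.0145 by quantile normalization; averaged Dusp1 became -0.0537 without KD 6 h replicate 2 and 0.11 without replicate 1. For the difference between times, Spry1 became 0.0917 by median scaling, 0.0838 without scaling, 0.0466 with normexp, 0.00198 in the value table, and -0.10 to 0.0889 without 1 array (positive without 4 of the 8). Dusp5 became -0.43 and Spry4 -0.00221 with normexp, and Spred2 became -0.00195 without patch spots or without control 6 h replicate 2 and -0.0409 to 0.13 without 1 array. The cause was not tested. With 2 arrays a group, Dusp5, Spry2 and Spry4, the dimmest probes (processed signals of 8 to 147, 28 to 77 and 22 to 78), are the least certain.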
